A study of Mus musculus with 4 samples.

Results

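The mitochondrial ribosome genes were those whose symbol in the platform annotation begins with Mrpl or Mrps and a digit, together with Ptcd3 and Dap3, and 73 such genes had a probe set with a single symbol among 22180 genes on the array. By symbol 43 belonged to the large subunit and 30 to the small subunit, and each was represented by its brightest probe set, the one with the highest mean log2 intensity over the 4 arrays. Ptcd3 was chosen by its log2 difference between the groups, so its values are given as a description. The other members were chosen by name, with results of these data known. RNA came from regulatory T cells (Treg, CD4 T cells that express the transcription factor Foxp3) of 2 groups of mice, with 2 arrays from mice given an agonistic antibody to death receptor 3 (anti-DR3) and 2 from mice given an isotype control antibody. All mice were of the strain labelled Foxp3Luci-DTR-4(B6 Albino), and CD4 cells with a Foxp3-GFP reporter were sorted 4 days after intraperitoneal injection. The labels give no age, and they do not say whether an array held RNA of 1 or several mice. The p-values therefore rest on array-to-array spread, part or all of which may be technical.

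Mitochondria keep a small genome that encodes core proteins of the respiratory chain, and a ribosome of their own translates them. That ribosome has a large subunit, which joins amino acids, and a small subunit, which reads the messenger RNA. Its proteins are all encoded in the nucleus, made in the cytosol and imported, and many have a homologue in the bacterial ribosome while others are found in mitochondria alone. Mitochondrial translation is known to be needed by T cells that take up respiration and division after activation.

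Of 71 members tested with limma, 3 rose after anti-DR3 and all 3 belonged to the large subunit: Mrpl54 (1.77-fold), Mrpl32 (1.40-fold) and Mrpl34 (1.38-fold). In the small subunit 0 of 29 tested members rose, 1 was called lower, Ptcd3, and 28 did not pass. Over all 12114 genes tested, 4.49% were called higher and 1.47% lower, so the 3 rises stood near the share of all genes, and the fall of Ptcd3 was what chose it. The median log2 difference, anti-DR3 minus control antibody, was 0.11 for the 42 large subunit members tested, 0.03 for the 29 of the small subunit and 0.01 for all genes tested. After subtraction of each array's own median over tested genes, the subunit medians were 0.05 and -0.03. The direction of the small subunit thus turned with the scaling. The subtraction lowered the difference of every gene tested by the same 0.0606, so the place of each subunit relative to all genes did not change.

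Mrpl54 encodes a large subunit protein found in mitochondria alone. Its log2 intensity was 7.83 and 7.90 after anti-DR3, against 6.98 and 7.10 after control antibody. Both anti-DR3 arrays lay above both control arrays, with a gap much wider than the spread within either group. The difference was 0.82 ± 0.087 (SE, n = 2 arrays per group; adjusted p = 0.0114, limma, Benjamini-Hochberg over the 12114 genes). Mrpl34 encodes the homologue of the bacterial large subunit protein L34. It had 7.28 and 7.18 after anti-DR3, against 6.80 and 6.74 after control antibody on the log2 intensity scale, again without overlap, and the difference was 0.46 ± 0.084 (adjusted p = 0.0378, limma). Mrpl32 encodes the homologue of bacterial L32, whose precursor is cut by the m-AAA protease of the inner membrane before it joins the ribosome, as known from yeast and mouse. Its log2 intensities were 6.34 and 6.46 after anti-DR3, against 5.84 and 5.995 after control antibody. The groups did not overlap, and the difference was 0.48 ± 0.096 (adjusted p = 0.0452, limma). The calls were few and fragile: without anti-DR3 replicate 1, anti-DR3 replicate 2 or control antibody replicate 1, limma called 0 of these 3 rises, and without control antibody replicate 2 it called Mrpl54 alone, while the smallest difference of the 3 in these fits was 0.41. With the replicate number as a block Mrpl34 lost its call (adjusted p = 0.0518, limma), and in the centred data Mrpl32 and Mrpl34 did (0.0732 and 0.0544).

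**Figure D1:**
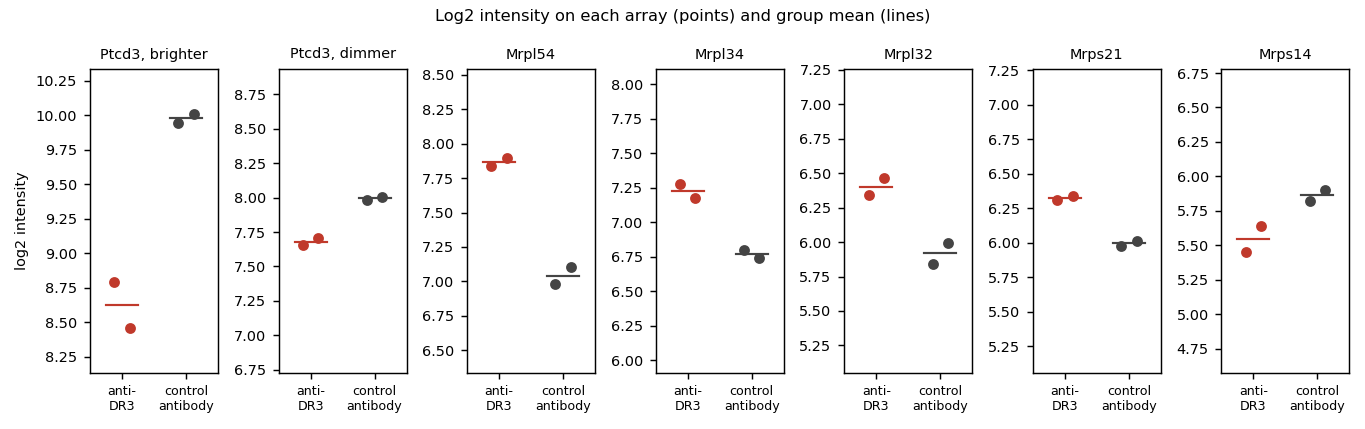
Log2 intensity on each array (points) and the group mean (lines) for both probe sets of Ptcd3, for Mrpl54, Mrpl34 and Mrpl32, and for the 2 small subunit genes after Ptcd3 with the largest moderated statistic, Mrps21 and Mrps14. Every panel spans the same log2 range, with anti-DR3 left of control antibody. The brighter probe set of Ptcd3 shows the widest gap, and in each panel the 2 groups do not overlap.

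Ptcd3 encodes a pentatricopeptide repeat protein of the small subunit, known from human cells to be needed for mitochondrial translation. Its brighter probe set had intensities of 443 and 352 after anti-DR3, against 987 and 1029 after control antibody. On the log2 scale these were 8.79 and 8.46, against 9.95 and 10.01, and the difference of -1.35 was the lowest of all 12114 genes tested. Its dimmer probe set had intensities of 201 and 209 after anti-DR3, against 253 and 257 after control antibody, or 7.65 and 7.71 against 7.99 and 8.01 on the log2 scale. Here too both anti-DR3 arrays lay below both control arrays, but the difference was -0.32, and the mean of both probe sets gave -0.83. The SD within a group was 0.23 (anti-DR3) and 0.043 (control antibody) for the brighter probe set, and 0.036 and 0.014 for the dimmer one (n = 2 each). The platform annotation used here does not say which part of the gene each probe set covers.

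The RefSeq table of GRCm38.p6 places 1 other gene within the bounds of Ptcd3 on chromosome 6, the box C/D small nucleolar RNA Snord94, and 0 probe sets on the array carried that symbol. Many small nucleolar RNAs of this class, though not all, guide chemical modification of ribosomal RNA, and they are often processed from introns of a host gene. Of 44 genes tested whose symbols begin with Snord, 26 fell and 18 did not pass in limma, all 44 had a difference below 0 and the median log2 difference was -0.52. The brighter probe set of Ptcd3 thus lay below the range of these genes, which ran from -0.999 to -0.038, while the dimmer one lay inside it. The part of Snord94 in the signal of the brighter probe set was not tested. Polr1a, a subunit gene of RNA polymerase I, starts 291 bases from Ptcd3 on the opposite strand and differed by -0.36 ± 0.078 (adjusted p = 0.0534, limma).

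The start regions of the called members are shown because these genes share a function but not a direction. Each window holds 250 bases before and 50 after the annotated start, 5′ to 3′ on the gene's strand, from RefSeq on GRCm38.p6. The table of start regions held 63 of the 73 members, matched by symbol, and Mrpl54 was not among them. Capitals mark matches, on either strand, to 5 short motifs: GCGCA, any base and GCGC, bound by NRF1, CCGGAAG, bound by ETS factors, AAGATGGCG, bound by YY1, ACTACA, any 2 bases and TCCC, bound by ZNF143, and CACGTG, the E-box of Myc and related factors. In Mrpl34 the second ZNF143 match and the ETS match overlap and form 1 run of capitals. The windows are those of Mrpl34 (chr8:71464676-71464975, plus strand), Mrpl32 (chr13:14612988-14613287, minus strand) and Ptcd3 (chr6:71908713-71909012, minus strand).
Mrpl34: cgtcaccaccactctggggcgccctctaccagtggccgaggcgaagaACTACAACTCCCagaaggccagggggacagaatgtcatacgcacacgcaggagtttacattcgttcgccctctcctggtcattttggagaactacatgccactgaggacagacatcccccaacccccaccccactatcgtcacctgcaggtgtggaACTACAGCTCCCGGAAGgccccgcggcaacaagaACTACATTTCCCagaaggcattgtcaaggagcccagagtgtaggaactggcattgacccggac
Mrpl32: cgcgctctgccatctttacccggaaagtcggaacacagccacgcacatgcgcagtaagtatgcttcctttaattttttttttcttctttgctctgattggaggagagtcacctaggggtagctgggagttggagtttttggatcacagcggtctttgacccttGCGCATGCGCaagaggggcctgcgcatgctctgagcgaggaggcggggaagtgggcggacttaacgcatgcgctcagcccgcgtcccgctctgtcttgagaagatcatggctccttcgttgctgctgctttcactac
Ptcd3: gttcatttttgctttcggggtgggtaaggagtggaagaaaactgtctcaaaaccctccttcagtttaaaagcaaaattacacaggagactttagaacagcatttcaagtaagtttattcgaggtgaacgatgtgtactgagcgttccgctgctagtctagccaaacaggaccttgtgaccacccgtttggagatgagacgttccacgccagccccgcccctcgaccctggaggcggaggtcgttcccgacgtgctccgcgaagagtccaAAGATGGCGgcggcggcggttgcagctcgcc

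Mrpl34 held 3 ZNF143 matches and 1 ETS match, Mrpl32 held 1 NRF1 match and Ptcd3 held 1 YY1 match just after its start. The ZNF143 letters were chosen after the Mrpl34 window had been read. Over the 69 windows of members, 33.3% held the ETS letters, against 8.86% of all 32851 windows and 11.6% of the 21262 windows of protein-coding genes. The NRF1 letters were in 15.9% of member windows, against 4.60% of all windows and 6.38% of coding ones. The YY1 letters were in 13.0%, against 1.40% and 1.83%, and the ZNF143 letters in 7.25%, against 1.81% and 2.54%. E-box letters were in 10.1% of member windows, against 7.15% and 7.84%. These are matches of letters, and binding was not measured. All 11 tested members with the NRF1 letters differed above 0 (median log2 difference 0.11), but only 8 did once each array was centred. With the ZNF143 letters 5 of 5 lay above 0 (median 0.18; 4 centred) and with the E-box letters 4 of 5 (0.10; 3 centred). With the ETS letters 15 of 22 did (0.06; 11 centred), and with the YY1 letters 4 of 9 (-0.0011; 4 centred), Ptcd3 being among the others. Over all 71 tested members 50 lay above 0, and 37 in the centred data, where the difference of every gene was lowered by 0.0606. Of all 12114 genes tested, 52.4% lay above 0 before centring. Their share after centring was not counted, so the centred counts have no like share beside them. No difference between motifs was tested.

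Apart from the 3 rises, 39 large subunit members did not pass the test. Among these, 19 had anti-DR3 arrays that all lay above the control arrays. In all, the groups did not overlap for 22 of 42 large subunit members in the higher direction (52.4%) and for 1 in the lower, Mrpl47, against 31.6% and 24.6% of all genes tested (56.1% in either direction). For the small subunit these were 6 of 29 higher (20.7%) and 3 lower (10.3%), namely Ptcd3, Mrps14 and Mrps18a. Across arrays, each gene was set against its own mean over the 4 arrays. The median of the large subunit members was then 0.061 and 0.067 after anti-DR3, against -0.044 and -0.071 after control antibody, so that the groups were apart. For the small subunit it was 0.021 and 0.0073 after anti-DR3, against 0.032 and -0.050 after control antibody, so that the groups overlapped. The same medians over all genes tested were 0.013 and 0.0090 after anti-DR3, against -0.0046 and -0.014 after control antibody. These are descriptions, and the difference between the subunits was not tested, because the members were chosen with results of these data known.

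**Figure D2:**
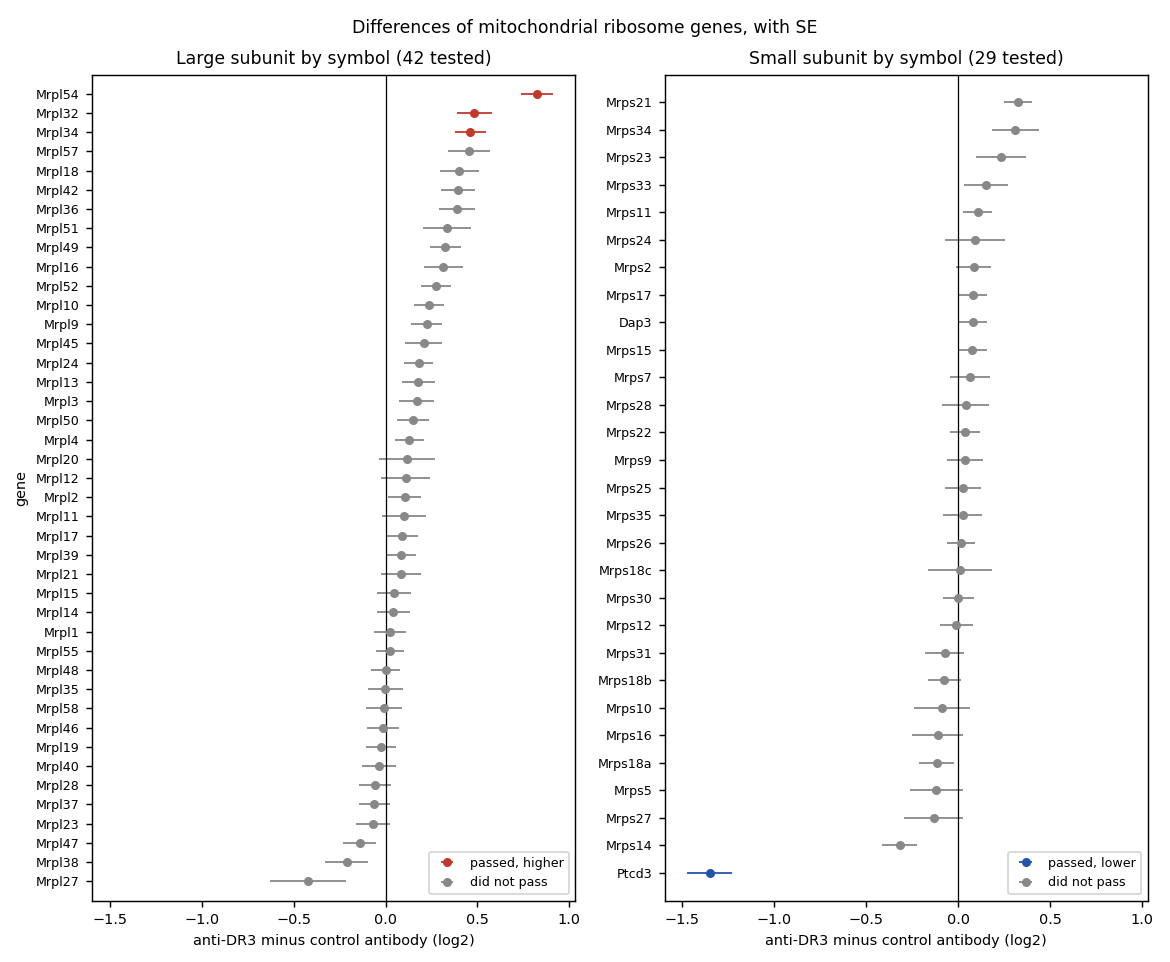
Log2 difference, anti-DR3 minus control antibody, of each tested member (points) with its SE (bars), for the large subunit (left, 42 genes) and the small subunit (right, 29 genes) by symbol. Red marks the 3 members that rose, blue marks Ptcd3, which was chosen for its difference, and grey marks members that did not pass an adjusted p of 0.05 in limma. Of the large subunit genes 31 lie above 0, and of the small subunit genes 19, against 52.4% of all 12114 genes tested.

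Of the large subunit proteins with a bacterial homologue, 2 of 27 tested genes rose, Mrpl34 and Mrpl32, with a median log2 difference of 0.10. Among all genes tested 4.49% were called higher. Mrpl18, the homologue of a bacterial protein that binds 5S ribosomal RNA, had 7.53 and 7.32 after anti-DR3, against 6.95 and 7.10 after control antibody. Its groups did not overlap, but its difference of 0.40 ± 0.11 did not pass (adjusted p = 0.0810, limma). Mrpl36, the homologue of bacterial L36, had 5.99 and 5.99 after anti-DR3, against 5.49 and 5.71 after control antibody, and did not pass either (0.39 ± 0.099, adjusted p = 0.0766, limma). A second probe set of Mrpl36 gave 0.097. Mrpl10, a protein of the stalk that recruits translation factors, had 8.003 and 7.948 after anti-DR3, against 7.783 and 7.694 after control antibody (0.24 ± 0.082, adjusted p = 0.141, limma), while a dim second probe set gave -0.19. Mrpl12, its partner in the stalk, had 6.30 and 6.05 after anti-DR3, against 6.20 and 5.93 after control antibody, and the groups overlapped. Mrpl16, Mrpl9 and Mrpl24 differed by 0.31, 0.22 and 0.18, each without overlap and none past the threshold. At the other end, Mrpl27, the homologue of a bacterial protein next to the catalytic centre, had 5.39 and 5.01 after anti-DR3, against 5.89 and 5.35 after control antibody. Its groups overlapped, and its error was the widest of the members (-0.42 ± 0.21, adjusted p = 0.259, limma).

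Of the large subunit proteins counted as having no homologue in the bacterial ribosome, 1 of 17 tested genes rose, Mrpl54. Again, 4.49% of all genes tested were called higher. The median log2 difference of this group was 0.08. This group includes Mrps30 and Mrps18a, which carry small subunit names but sit in the large subunit in structures of mammalian ribosomes, and which differed by 0.0013 and -0.12. Mrpl57 had 6.41 and 6.14 after anti-DR3, against 5.77 and 5.87 after control antibody, without overlap, but did not pass (0.45 ± 0.11, adjusted p = 0.0742, limma). Mrpl42 had 6.01 and 6.14 after anti-DR3, against 5.62 and 5.75 after control antibody (0.39 ± 0.093, adjusted p = 0.0675, limma), and Mrpl49 had 6.95 and 6.84 after anti-DR3, against 6.59 and 6.56 after control antibody (0.33 ± 0.083, adjusted p = 0.0768, limma). Both were without overlap and short of the threshold. Mrpl52 and Mrpl51 differed by 0.28 and 0.33 and did not pass (adjusted p = 0.104 and 0.177, limma). Mrpl58, which frees stalled ribosomes from their peptide and is also built into the subunit, differed by -0.0066 with overlapping groups. When Mrps30 and Mrps18a were counted with the large subunit, the subunit medians were 0.10 for the large and 0.04 for the small subunit.

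Of the small subunit proteins with a bacterial homologue, 0 of 15 tested genes passed, with a median log2 difference of 0.04. Under an unadjusted p of 0.05 there were 2, Mrps21 and Mrps14, against 3166 of all 12114 genes tested. Mrps21, the homologue of bacterial S21, was the nearer to passing, with 6.31 and 6.34 after anti-DR3, against 5.98 and 6.01 after control antibody. The replicates lay close together and the groups apart, but the difference did not pass (0.33 ± 0.077, adjusted p = 0.0675, limma). Mrps14, the homologue of bacterial S14, had 5.45 and 5.64 after anti-DR3, against 5.82 and 5.90 after control antibody (-0.32 ± 0.097, adjusted p = 0.111, limma), and both anti-DR3 arrays lay below the controls. Mrps12, a protein of the decoding centre, differed by -0.0097 with overlapping groups, and Mrps11 by 0.11 without overlap. Mrps15 had 8.17 and 8.11 after anti-DR3, against 8.05 and 8.08 after control antibody. Its 95% interval from limma ran from -0.12 to 0.27. For Mrps18c the interval was wider, from -0.42 to 0.44, since replicates of each group lay far apart (5.59 and 5.97 after anti-DR3, against 5.57 and 5.96 after control antibody). Mrps16 had 2 bright probe sets that disagreed: the brighter gave -0.11 with overlapping groups, and the other had 6.55 and 6.30 after anti-DR3, against 5.89 and 6.08 after control antibody, a difference of 0.44.

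Of the small subunit proteins counted as having no homologue in the bacterial ribosome, 11 of 12 tested genes did not pass. The remaining one was Ptcd3. The median log2 difference of the 12 was 0.03. Mrps34, needed for a stable small subunit in mouse, had 6.80 and 6.62 after anti-DR3, against 6.55 and 6.24 after control antibody, without overlap (0.31 ± 0.13, adjusted p = 0.199, limma). Mrps23 had 6.58 and 6.70 after anti-DR3, against 6.59 and 6.22 after control antibody, where 1 control array reached the level of an anti-DR3 array. Dap3, a protein that binds guanine nucleotides and was first described in cell death, had 6.93 and 6.93 after anti-DR3, against 6.88 and 6.82 after control antibody, and differed by 0.08 ± 0.078 (adjusted p = 0.566, limma). Mrps27, which like Ptcd3 carries pentatricopeptide repeats, had 5.59 and 5.84 after anti-DR3, against 6.05 and 5.65 after control antibody, with overlapping groups. Mrps26 differed by 0.01 ± 0.077, and its 95% interval ran from -0.18 to 0.20. The other mitochondrial pentatricopeptide repeat genes measured, Ptcd1, Ptcd2, Lrpprc and Prorp, differed by -0.13, 0.05, -0.19 and 0.17, and none of the 4 passed in limma, adjusted or unadjusted.

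**Figure D3:**
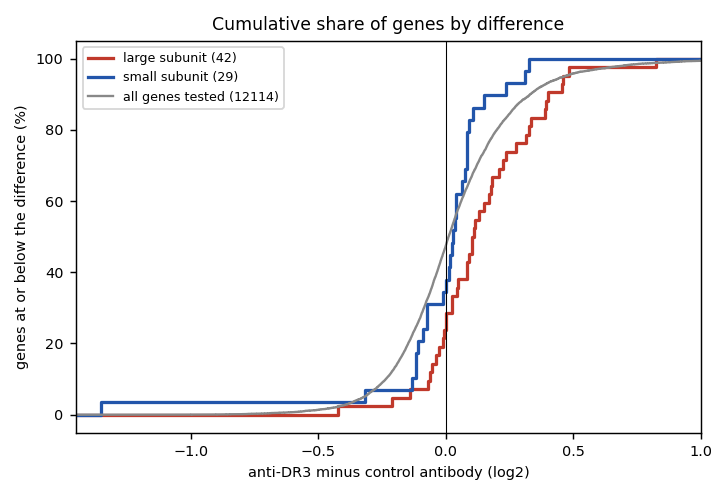
Cumulative share of genes (%) against the log2 difference, anti-DR3 minus control antibody, for large subunit members (red, 42), small subunit members (blue, 29) and all genes tested (grey, 12114, drawn up to a difference of 1). The red line runs right of the grey one over most of its length, with a median of 0.11 against 0.01. The blue line is steeper than the grey one near 0, and its first step at the far left is Ptcd3.

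Mrpl22 and Mrps36 were too dim to be tested. Mrpl22 had log2 intensities of 5.25 and 5.39 after anti-DR3, against 5.28 and 5.34 after control antibody, and exceeded the array median, which lay between 5.33 and 5.39, on 1 array. Mrps36 had 4.86 and 4.63, against 4.28 and 4.87, and exceeded it on 0 arrays. Its protein is now known as a subunit of the 2-oxoglutarate dehydrogenase complex. Of the members tested, 68 exceeded the array median on all 4 arrays. Mrpl28 and Mrpl47 did so on 3, and Mrpl27 on 2, 1 array of each group, so 0 members passed through the arrays of a single group. For 10 members more than 1 probe set was present.

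Other genes of mitochondrial translation were read from fixed lists. The 19 mitochondrial tRNA synthetase genes tested had a median log2 difference of -0.09. Of these 1 rose and 0 fell, against 4.49% and 1.47% of all genes tested. That gene was Fars2, which charges the phenylalanine tRNA, with 8.36 and 8.30 after anti-DR3, against 7.75 and 7.57 after control antibody. Its groups were well apart, and it rose by 0.67 ± 0.094 (adjusted p = 0.0216, limma). Tars2, the threonine enzyme, had the next largest statistic and did not pass (-0.29 ± 0.077, adjusted p = 0.0817, limma). Of 11 translation factor genes 0 passed in limma, 2 had an unadjusted p under 0.05 and the median was 0.11. Tufm, the elongation factor that brings tRNA to the ribosome, had 8.18 and 8.23 after anti-DR3, against 7.98 and 7.84 after control antibody (0.29 ± 0.088, adjusted p = 0.109, limma). A separate list held mitochondrial ribosome genes whose names fall outside the symbol rule, and 2 of them had a probe set. Oxa1l, which inserts the products of this ribosome into the inner membrane, differed by 0.38 ± 0.10 (adjusted p = 0.0801, limma). Gadd45gip1 differed by -0.067 ± 0.082 with overlapping groups (adjusted p = 0.658, limma). Of 24 assembly factor genes and 18 genes of mitochondrial DNA expression 0 passed, with medians of -0.02 and -0.03 and 4 and 3 genes under an unadjusted p of 0.05. Of 57 cytosolic ribosomal protein genes 0 passed as well, with a median of -0.03 and 8 under an unadjusted p of 0.05. Among all 12114 genes tested, 3166 lay under an unadjusted p of 0.05 in limma.

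**Figure D4:**
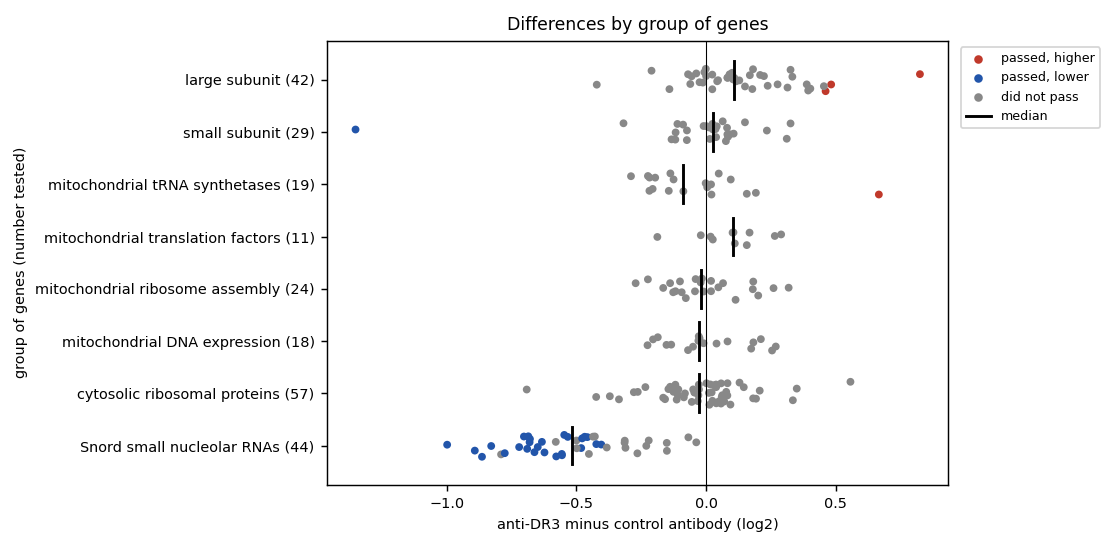
Log2 difference, anti-DR3 minus control antibody, of each tested gene (points) by group, with the group's median (black line) and the number tested in brackets. Red and blue mark genes past an adjusted p of 0.05 in limma, higher and lower. The mitochondrial groups and the cytosolic ribosomal proteins have medians between -0.09 and 0.11, and the Snord genes have a median of -0.52, with Ptcd3 as the point at the far left of the small subunit.

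Many member genes start close to another gene on the opposite strand, a layout in which both can share a start region. Such a neighbour with start sites at most 1000 bases apart was present for 24 of 63 members with a listed start (38.1%), against 13.1% of 17491 protein-coding genes and 12.2% of 27025 genes in the RefSeq table. In 21 pairs both genes were tested, where the pair Mrpl46 and Mrps11 counts from each side, and the neighbour rose in 1, fell in 1 and did not pass in 19, with a median log2 difference of 0.0026. Psma2, a proteasome subunit gene 205 bases from the start of Mrpl32, differed by 0.37 ± 0.092 (adjusted p = 0.0739, limma), beside 0.48 for Mrpl32. The neighbour that rose was Ncapd2, a condensin gene of mitosis, at 0.79 ± 0.12 (adjusted p = 0.0279, limma), beside 0.33 for Mrpl51, which did not pass. The neighbour that fell was Gga3, an adaptor of vesicle transport, by 0.44 ± 0.080 (adjusted p = 0.0373, limma), beside 0.06 for Mrps7. Member and neighbour differed in the same direction in 9 of the 21 pairs.

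All 7 measured genes that mark Treg or T cells were above the array median on all 4 arrays. Foxp3 had log2 intensities of 11.93 and 11.90 after anti-DR3, against 11.89 and 11.81 after control antibody. Of the 7, Ikzf2 rose (0.58, adjusted p = 0.0193, limma), Il2ra fell (-0.49, adjusted p = 0.0441, limma) and 5 did not pass, namely Foxp3, Ctla4, Cd4, Cd3e and Cd3g. Of 7 measured genes of dividing cells 3 rose, Mki67, Top2a and Ccna2, of which Ccna2 passed the filter on dim genes only through its 2 anti-DR3 arrays. The other 4 did not pass: Cdk1 and Tyms differed by 0.47 and 0.39, and Mcm2 and Pcna by -0.066 and -0.092. For Mcm2 and Pcna both anti-DR3 arrays lay below both control arrays, and for Cdk1 and Tyms both lay above them. The summed intensity of the 7 was 2307 and 2330.3 after anti-DR3, against 1609.2 and 1609.5 after control antibody. Of 10 measured B cell markers 5 were bright enough to test and 3 rose, Ighm, H2-Aa and H2-Ab1, with a summed intensity of 4472 and 4671 after anti-DR3, against 2940.3 and 3157 after control antibody. Most of that sum was Ighm, and the other 9 summed to 482 and 456 after anti-DR3, against 401 and 386 after control antibody, a sum taken after the values were seen. Cd79b and Cd22, also tested, differed by 0.18 and -0.04 with overlapping groups and did not pass. Cd79a, Ms4a1 and Pax5, which define B cells, were too dim to be tested, as were Blk and Ebf1. Among these dim genes Ebf1 was lower without overlap (-0.25), and the groups of the others overlapped. Of 9 myeloid markers 3 were tested and 1 rose, Csf1r. Itgam, also tested, passed the filter on dim genes only through its 2 anti-DR3 arrays. The summed intensity of the 9 was 325 and 376 after anti-DR3, against 281 and 307 after control antibody. Their directions were mixed among the 6 too dim to be tested. Adgre1 and Fcgr1 differed by -0.337 and -0.321, and S100a9 and Mpeg1 by 0.164 and 0.530, each without overlap. For Cd14 and S100a8 the groups overlapped. The part of cell division and of other cell types in the differences of the mitochondrial ribosome genes was not tested. In bulk RNA of sorted cells, fewer cells that express a gene and less RNA per cell cannot be told apart.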

How the data were processed

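The deposited table held 1 linear intensity for each probe set and array, and the submitters' processing notes name robust multi-array average (RMA). Biotin-labelled total RNA had been put on Affymetrix whole-transcript arrays, per the labels' protocols. No source used here names the RMA software or a genome build. RMA scales arrays to a shared distribution, which can hide a change common to all genes. The values themselves showed a linear scale, and tests used their log2. The small number of arrays limits the precision.

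Of 41345 probe sets, 23521 had 1 symbol in the platform annotation, 1814 several and 16010 none listed; only the first kind was used. All 73 members matched the RefSeq table of GRCm38.p6 by Entrez identifier. Genes above the array median of all probe sets on at least 2 of 4 arrays were tested, 12114 in all. Differences were fitted in R 4.3.3 by limma 3.58.1 (lmFit, eBayes, two-sided, with 2 residual and 3.94 prior degrees of freedom). The p-values of the 12114 genes were adjusted together after Benjamini-Hochberg, and calls needed an adjusted p under 0.05. An exact permutation test of 2 arrays against 2 cannot go below p = 0.333. The code was tested on simulated data. Figures were drawn with matplotlib 3.10.9.

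The members and lists were chosen with earlier results of these data known, so no test over a list is given. Named were Ptcd3, the members past the threshold, those with the largest moderated statistic up to 20 and at least 6 per subunit, the 3 brightest and 3 dimmest tested members of each subunit, and up to 4 genes of each list. Other members were named for their role or their probe sets after their values were seen, as were the head-to-head neighbours and the promoter motifs. Subunit and bacterial homology were assigned from textbook knowledge. Mrps18c was counted as a homologue of a bacterial protein, while Mrps18a and Mrps18b, which share its name, were not. Another assignment would change the counts and could change the medians of the groups split by homology. Alternatives covered the replicate block, each array left out, the filter, normalization, the prior, the probe set and the threshold. The replicate numbers come from the labels, which do not say what they share. Replicate differences correlated at 0.051 between the groups across genes, and with only 2 pairs this does not show pairing.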

Additional observations from a re-analysis of the deposited data

How the results depend on the processing

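With all 4 arrays limma called 3 members higher and 1 lower. Leaving out 1 array at a time, where a group of 1 borrows its spread from the other, it called 0 to 1 member higher and 0 to 1 lower, 0 to 1 in the large and 0 to 1 in the small subunit. The subunit medians then ran from 0.099 to 0.126 (large) and from 0.0069 to 0.060 (small), and the difference of Ptcd3 from -1.52 to -1.19. No filter on dim genes gave 0 higher, 0 lower, 0 in the large and 0 in the small subunit, with 14 members under an unadjusted p of 0.05. With the filter, 16 of 71 members lay under it, and 3166 of all 12114 genes tested. A trended robust prior gave 5 higher, all 5 in the large subunit, and an adjusted p under 0.10 gave 9 higher and 1 lower, of which 8 were in the large subunit and 2 in the small (Mrps21 higher, Ptcd3 lower). Centring each array on the median of the genes tested gave 1 higher, 1 in the large subunit, and medians of 0.046 (large) and -0.035 (small). This centring lowered the difference of every gene by 0.0606. The mean of all probe sets gave -0.83 for Ptcd3. The causes were not tested. The replicate block called 3 members, all among the 4 of the fit without it, and lost Mrpl34 (0.46, adjusted p = 0.0518, limma). For named members, 275 values kept their call and sign, 17 were no longer called and 8 were newly called. Another 8 changed sign, in Mrpl28, Mrps27, Mrps18c and Mrps26, none of them called. Size did not enter this count: Mrpl10 went from 0.24 to 0.024 with the mean of its probe sets. Leaving out arrays, Mrpl28 ran from -0.132 to 0.020, Mrps27 from -0.338 to 0.071, Mrps18c from -0.184 to 0.206 and Mrps26 from -0.0040 to 0.033. Centring gave -0.050 for Mrps18c and -0.046 for Mrps26, and repeated quantile normalization -0.031 for Mrps26. Mrps36 was dim, so leaving it out changed no value.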

Other observations

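Probe sets that list a mitochondrial ribosome gene among several symbols stood outside the members. There were 13, with a median log2 difference of 0.06 and a range from -0.19 to 0.43. In 4 of them both anti-DR3 arrays lay above both control arrays, in 2 both lay below, and in 7 the groups overlapped. Among all genes tested, 31.6% lay above and 24.6% below in this way. The 13 probe sets, unlike those genes, were not filtered for dimness.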
